A study of Homo sapiens with 20 samples.

Results

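The 10 genes described here encode the enzymes that write and remove 5-methylcytosine in DNA and the enzymes that methylate lysine 9 or lysine 27 of histone H3. They were chosen by name: the DNA methyltransferases DNMT1, DNMT3A and DNMT3B, the methylcytosine dioxygenases TET1, TET2 and TET3, the H3K27 methyltransferases EZH1 and EZH2, and the H3K9 methyltransferases SETDB1 and EHMT2. They are 10 of 57087 genes to which the transcript quantifications could be assigned, and all 10 passed the filter on low counts in every comparison. The study asked how loss of the small RNA machinery changes RNA in human embryonic kidney cells, and 14 of its 20 samples were used, the small RNA libraries being not analysed here. In the mRNA-seq, 3 libraries labelled HEK293T induced (wt) were compared with 3 of the HEK293 2B line, which carries a doxycycline-inducible shRNA against DICER1 (shDicer), and both had 3 µg/ml doxycycline for 7 days. In the chromatin-associated RNA-seq (chrRNA-seq), which reads RNA still bound to chromatin and is rich in unfinished transcripts, there were 2 wt libraries, 2 shDicer and 2 shAgo2 libraries from inducible lines given 3 µg/ml doxycycline for 72 h, and 2 shDrosha libraries from cells transfected with an shRNA plasmid. No doxycycline treatment is stated for the chromatin wt and shDrosha cells. HEK293 cells are an immortalised line derived from human embryonic kidney, and HEK293T cells also carry the SV40 large T antigen. Each inducible line differs from wt both in its shRNA and in being a separate derived line (the chromatin shDicer line also carries a tagged Dicer cassette), and these cannot be told apart. The labels do not say that replicates came from separate cultures, so p-values measure only the spread between these libraries.

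DNA methylation is copied to the daughter strand after replication by DNMT1 and set at new sites by DNMT3A and DNMT3B, whereas the TET enzymes oxidise the mark and so start its removal. EZH1 and EZH2 are the alternative catalytic subunits of Polycomb repressive complex 2 (PRC2), which places H3K27 methylation over silent developmental genes, with EZH2 the more abundant in dividing cells. SETDB1 methylates H3K9 at retroelements and zinc finger gene clusters together with TRIM28, and EHMT2 (also called G9a) acts with EHMT1 on H3K9 in euchromatin. Dicer and Drosha cut the precursors of miRNAs, and Ago2 carries the mature miRNA to its target mRNA.

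Several of the enzymes are textbook examples of miRNA targets, so the mature sequences of 5 miRNAs known for this (RefSeq) are shown with the seed, bases 2 to 8, in capitals.
let-7a-5p: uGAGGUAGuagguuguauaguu
miR-29b-3p: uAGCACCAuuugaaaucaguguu
miR-101-3p: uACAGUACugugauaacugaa
miR-26a-5p: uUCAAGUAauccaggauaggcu
miR-148a-3p: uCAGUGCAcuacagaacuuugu

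The longest annotated 3′ UTR of each member (GENCODE v44) was searched on the sense strand for the 7 bases complementary to each seed. Among 19248 such UTRs, of median length 1230 nt, a match to let-7a-5p (CTACCTC) was found in 10.6%, to miR-29b-3p (TGGTGCT) in 15.0%, to miR-101-3p (GTACTGT) in 10.5%, to miR-26a-5p (TACTTGA) in 12.3% and to miR-148a-3p (TGCACTG) in 14.7%. TET3 held 10 matches to miR-29b-3p in 6000 nt, DNMT3A held 4 in 6424 nt and TET1 held 3 in 2673 nt. TET2, DNMT3B and SETDB1 held 1 match each to miR-29b-3p. EZH2 held 2 matches to miR-101-3p, 1 to let-7a-5p and 1 to miR-26a-5p within a UTR of 263 nt. EZH1 held 1 match each to let-7a-5p and miR-148a-3p, DNMT1 held 1 to miR-148a-3p, and EHMT2 held none of the 5 in its 325 nt. A match describes letters only, and the levels of these miRNAs were not analysed here. A selection of the sites in EZH2, EZH1 and DNMT3B is shown as examples, with the seed match in capitals. Their RNA differed between groups, as did that of DNMT3A, TET1, TET2 and TET3, whose sites are not shown.
EZH2, miR-101-3p match at UTR position 59: aggaacctcgaGTACTGTgggcaatttaga
EZH2, miR-101-3p match at UTR position 114: gaatttgcaaaGTACTGTaagaataattta
EZH2, let-7a-5p match at UTR position 7: catctgCTACCTCctcccccctcct
EZH1, let-7a-5p match at UTR position 548: aggtcaccttaCTACCTCctccctcgtggc
DNMT3B, miR-29b-3p match at UTR position 1202: actcttcttacTGGTGCTattttgtagaat

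The promoters of the members differ in their content of CG, the dinucleotide that the DNA enzymes act on, and those of EZH1, EZH2 and DNMT3A are shown because these 3 genes were called in shDicer chromatin RNA. They are RefSeq sequences on GRCh38.p14, from 250 bases before to 50 bases after each transcription start, with every CG in capitals. Across 35116 promoters of 27305 genes the median was 14 CG (interquartile range 4 to 28), an E2F-type motif (TTTCCCGC, TTTCGCGC, TTTGCCGC or TTTGGCGC, either strand) was in 3.31% and CCAAT (either strand) in 34.6%.
EZH1, chr17:42744991-42745290, minus strand: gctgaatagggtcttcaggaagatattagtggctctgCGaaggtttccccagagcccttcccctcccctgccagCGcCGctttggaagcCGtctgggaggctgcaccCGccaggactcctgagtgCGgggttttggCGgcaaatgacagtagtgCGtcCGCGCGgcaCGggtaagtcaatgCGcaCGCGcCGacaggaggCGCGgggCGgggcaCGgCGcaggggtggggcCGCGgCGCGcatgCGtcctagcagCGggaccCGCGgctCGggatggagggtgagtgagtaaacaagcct
EZH2, chr7:148884242-148884541, minus strand: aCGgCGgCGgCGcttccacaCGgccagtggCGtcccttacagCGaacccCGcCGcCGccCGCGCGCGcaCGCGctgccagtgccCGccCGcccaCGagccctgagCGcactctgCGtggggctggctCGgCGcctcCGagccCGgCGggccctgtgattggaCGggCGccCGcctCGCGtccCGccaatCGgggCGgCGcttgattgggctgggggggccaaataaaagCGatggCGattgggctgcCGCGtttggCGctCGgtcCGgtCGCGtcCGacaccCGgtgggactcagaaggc
DNMT3A, chr2:25342541-25342840, minus strand: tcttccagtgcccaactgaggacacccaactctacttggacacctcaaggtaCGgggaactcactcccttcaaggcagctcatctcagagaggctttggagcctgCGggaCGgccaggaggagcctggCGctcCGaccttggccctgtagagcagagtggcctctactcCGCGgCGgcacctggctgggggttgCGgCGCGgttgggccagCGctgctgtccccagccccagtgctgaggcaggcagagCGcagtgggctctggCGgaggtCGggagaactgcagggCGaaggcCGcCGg
DNMT3A, internal start, chr2:25252266-25252565, minus strand: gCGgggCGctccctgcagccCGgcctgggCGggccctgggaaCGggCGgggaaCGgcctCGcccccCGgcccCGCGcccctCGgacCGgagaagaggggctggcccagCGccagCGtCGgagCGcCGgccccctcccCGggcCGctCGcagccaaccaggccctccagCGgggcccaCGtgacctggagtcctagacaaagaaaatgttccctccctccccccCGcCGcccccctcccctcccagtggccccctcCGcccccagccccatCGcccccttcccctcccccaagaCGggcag

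The EZH2 promoter held 46 CG, more than 97.1% of all promoters, with 1 E2F-type motif and 4 CCAAT matches. The EZH1 promoter held 30 CG, more than 77.6% of promoters, with 1 E2F-type motif and 0 CCAAT. The DNMT3A promoters shown held 18 and 28 CG, out of 6 that ranged from 18 to 46, and no E2F-type motif, and the DNMT1 promoter held 30 CG and an E2F-type motif. These matches are descriptions of sequence, and binding was not measured.

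Before the members, the targeted genes and the identity of the cells were checked. DICER1 fell in the mRNA-seq from 247 ± 13.5 CPM (counts scaled to library size; SD, n = 3) in wt to 87.8 ± 6.92 CPM (SD, n = 3) in shDicer, and AGO2 fell in the chromatin libraries labelled shAgo2 by 0.62 on the log2 scale (adjusted p = 9.29e-05). In the chromatin RNA of the libraries labelled shDicer, DICER1 was not called (log2 fold change -0.18, adjusted p = 0.166), and DROSHA was not lower in the libraries labelled shDrosha (0.069, adjusted p = 0.697). DICER1 was higher in shAgo2 (0.78, adjusted p = 3.59e-05). The chromatin RNA of the targeted genes thus does not check those 2 labels, and the groups are named below only as labelled. The study also assayed the targeted genes by qRT-PCR and western blot, which were not analysed here. Of the 6 HEK293 markers, 4 were higher and 1 lower in shDicer mRNA, 4 and 2 in shDicer chromatin RNA, 2 and 2 in shAgo2 and 0 and 2 in shDrosha. Of all genes, 15.6% and 14.2%, 11.0% and 10.5%, 12.5% and 12.1%, and 1.19% and 2.18% were called higher and lower in these comparisons. KRT8, KRT18, CDH2 and NEFL rose in both shDicer comparisons, NEFL from 2.14 to 47.9 TPM in mRNA (counts scaled to transcript length and library size), while NEFM fell, from 1.49 to 0.0719 TPM in mRNA. VIM fell in chromatin RNA, by 1.50 on the log2 scale in shDicer, 1.21 in shAgo2 and 0.80 in shDrosha. Among markers of other cell types INS was at 0 throughout, and CD3E, ALB and PTPRC were near 0. GFAP averaged 0.625 TPM in wt mRNA and 0.572 TPM in shDicer mRNA. Its chromatin RNA was present in every group, with means from 21.5 TPM (wt) to 28.3 TPM (shAgo2). HBB was at 0 in wt and shDrosha but at 27.6 TPM in shDicer mRNA. In shDicer and shAgo2 chromatin RNA HBB was at 3.07 and 3.24 TPM. The part of these line differences in the results was not tested. Totals were 10216430 to 17215978 estimated counts in the mRNA-seq and 17484067 to 21553760 in the chrRNA-seq, at which 3 counts correspond to 0.184 to 0.311 CPM and 0.149 to 0.183 CPM, and these floors cover counting error only.

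In wt mRNA the level per transcript length, in TPM (mean ± SD, n = 3), was highest for DNMT1 at 28.0 ± 2.23, followed by SETDB1 at 18.6 ± 0.227 and EZH2 at 10.2 ± 0.278. EZH1 stood at 5.75 ± 0.407 TPM, DNMT3B at 4.35 ± 0.335, TET2 at 3.11 ± 0.0846 and TET1 at 2.51 ± 0.255. The lowest were DNMT3A at 1.51 ± 0.153 TPM and EHMT2 at 1.32 ± 0.138, whose libraries overlapped, and TET3 at 0.720 ± 0.0666. Neighbours in this order did not overlap in their libraries except DNMT3A and EHMT2. In wt chromatin RNA (n = 2) DNMT1, at 230 and 250 TPM, and SETDB1, at 69.0 ± 5.42 TPM (SD), again led. There EZH1, at 41.5 ± 2.30 TPM, stood above EZH2, at 38.6 ± 0.468 TPM, and the libraries of DNMT3A and TET3 (13.0 ± 0.289 and 12.2 ± 1.29) and of EHMT2 and TET1 (7.38 ± 0.555 and 7.13 ± 0.352) overlapped. The TPM of EHMT2 rest on its own identifiers. Adding identifiers outside the annotation that share its transcripts' length and counts (described below) raised its counts 2.25-fold to 4.28-fold. Its place in both orders is therefore uncertain. TPM in the 2 assays were scaled separately and are not compared.

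**Figure D1:**
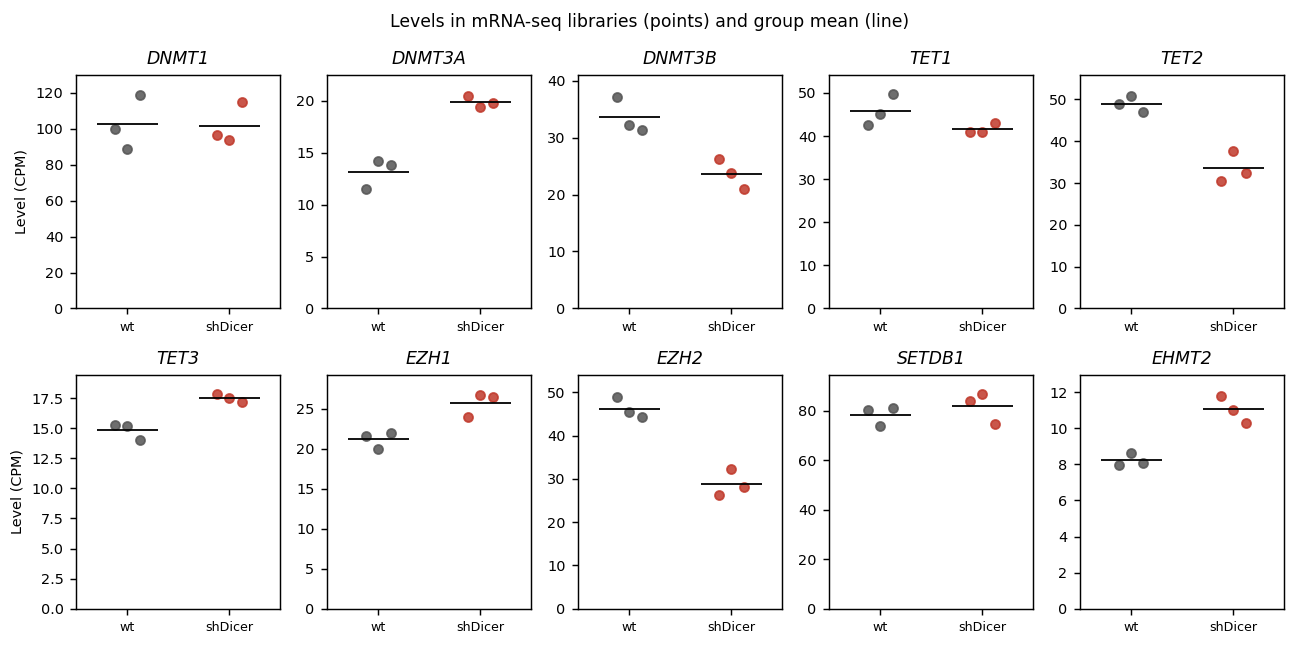
Level of each of the 10 genes in the mRNA-seq in CPM (linear axis from 0, scaled per gene), with a point for each of 3 wt and 3 shDicer libraries and a line at the group mean. EZH2 and TET2 are lower in all 3 shDicer libraries (EZH2 26.2 to 32.4 against 44.4 to 48.9 CPM), while the groups of DNMT1, TET1 and SETDB1 overlap.

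In the mRNA-seq, EZH2 and TET2 fell in shDicer and no member rose past the threshold of the study (adjusted p under 0.001). By edgeR's quasi-likelihood test, adjusted over 15090 genes, 0 of 10 members were called higher and 2 lower, beside 15.6% and 14.2% of all genes tested, so the count of members was near the background. The groups did not overlap for 7 members, 4 of them higher in shDicer and 3 lower, beside 32.8% and 31.6% of all genes. At an unadjusted p under 0.05, 3 were higher and 3 lower, beside 32.1% and 29.9% of genes, and DESeq2 called 0 higher and 2 lower, beside 17.0% and 16.8%. The median log2 fold change was 0.026 for the members and 0.011 for all genes.

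In chromatin RNA, DNMT3A and EZH1 rose and EZH2 fell in the libraries labelled shDicer, which is 2 of 10 members higher and 1 lower beside 11.0% and 10.5% of 32874 genes (adjusted p under 0.005). In the libraries labelled shAgo2, TET3 and EZH1 rose and DNMT3B fell, again 2 higher and 1 lower, beside 12.5% and 12.1% of genes. In the libraries labelled shDrosha, TET1 rose and DNMT1 fell at the study's wider threshold of 0.05 for this group, 1 in each direction beside 1.19% and 2.18% of genes. The 3 comparisons share the same 2 wt libraries. With 2 libraries a group, no member overlapped between wt and shDicer, 3 being higher and 7 lower, beside 34.7% and 33.9% of all genes. In shAgo2 5 were higher without overlap and 4 lower (36.8% and 36.0% of genes), and in shDrosha likewise 5 and 4 (24.5% and 24.6%). At an unadjusted p under 0.05 by edgeR, 2 members were higher and 7 lower in shDicer (23.3% and 22.7% of genes). Those counts were 3 and 2 in shAgo2 (24.7% and 23.9%) and 4 and 3 in shDrosha (8.83% and 10.3%). The median log2 fold changes of the members were -0.23, 0.071 and 0.025, against 0.0072, 0.0028 and 0.0049 for all genes. In bulk RNA, fewer cells of a type and less RNA per cell cannot be told apart.

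**Figure D2:**
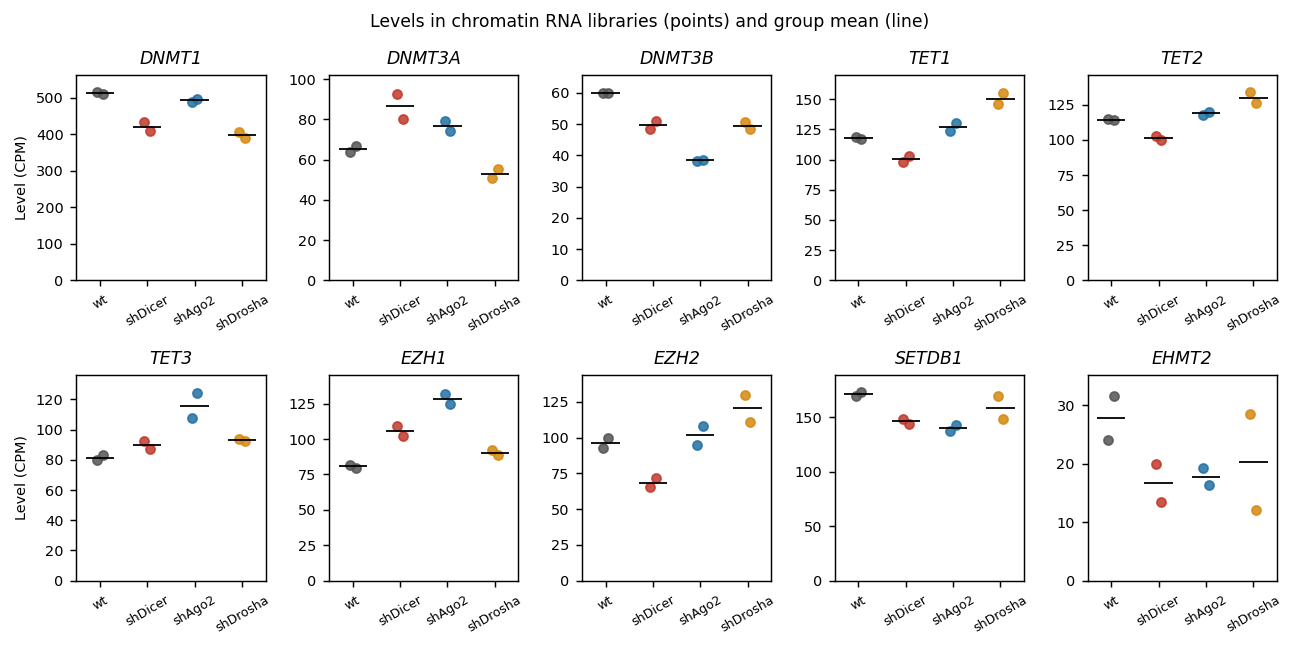
Level of each of the 10 genes in the chrRNA-seq in CPM (linear axis from 0, scaled per gene), with a point for each of 2 libraries in the groups labelled wt, shDicer, shAgo2 and shDrosha and a line at the group mean. EZH1 is highest in shAgo2 (125 and 132 against 79.6 and 82.0 CPM in wt), and EZH2 is lowest in shDicer (65.7 and 71.4 CPM).

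Among the DNA methyltransferases, DNMT3A was higher and DNMT3B lower in the Dicer knockdown at both RNA levels, though only DNMT3A in chromatin RNA passed the threshold. DNMT3A (chr2:25227855-25342590, minus strand, GRCh38) stood in mRNA at 11.5, 14.2 and 13.8 CPM in wt and 20.4, 19.4 and 19.8 CPM in shDicer. The groups did not overlap, and the log2 fold change of 0.60 (SE 0.122, adjusted p = 0.00160) missed the mRNA threshold, which it passed without the low-count filter (0.64, adjusted p = 7.15e-05). With length-scaled counts it was 0.36 (adjusted p = 0.0761) and against the 50 nearest genes 0.39 (adjusted p = 0.0197). In chromatin RNA DNMT3A rose from 63.9 and 66.9 CPM in wt to 92.6 and 80.2 CPM in shDicer, a log2 fold change of 0.40 (SE 0.0876, adjusted p = 0.00331). This was not called against the 50 nearest genes (0.34, adjusted p = 0.0116) or with only the 2 groups fitted (0.41, adjusted p = 0.00535). DNMT3A stood at 79.4 and 74.4 CPM in shAgo2 (log2 fold change 0.23, adjusted p = 0.0503). Against its neighbours the shAgo2 change was 0.058 (adjusted p = 0.644). In shDrosha DNMT3A was at 50.9 and 55.1 CPM, below both wt libraries (-0.30, adjusted p = 0.0897). Without shDicer 1 or shDicer 2 in the shared fit the shDrosha difference was called (adjusted p = 0.0446 and 0.0468). The call in shDicer chromatin RNA was lost without wt 1, wt 2, shDicer 1, shAgo2 1 or shAgo2 2 in turn (adjusted p = 0.00742 to 0.0438), with the log2 fold change at 0.30 without shDicer 1.

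DNMT3B (chr20:32762385-32809359, plus strand) fell in shAgo2 chromatin RNA, from 59.9 CPM in both wt libraries to 38.3 and 38.4 CPM, a log2 fold change of -0.64 (SE 0.0748, adjusted p = 2.97e-05). The libraries of shDicer, at 48.3 and 51.0 CPM, and of shDrosha, at 50.6 and 48.3 CPM, lay between these groups. Their log2 fold changes of -0.27 (adjusted p = 0.0120) and -0.28 (adjusted p = 0.0649) were not called, although the shDrosha difference was called without shDicer 1 or shDicer 2 (adjusted p = 0.0484 and 0.0492). In mRNA DNMT3B was at 37.2, 32.2 and 31.3 CPM in wt and 26.2, 23.8 and 20.9 CPM in shDicer, without overlap (log2 fold change -0.51, adjusted p = 0.00354, not called). Without the low-count filter it was called lower (-0.47, adjusted p = 0.000771). The 50 genes nearest to DNMT3B on chromosome 20 moved the same way, with a median log2 fold change of -0.47 in shAgo2 chromatin RNA and -0.34 in shDicer mRNA. Set against those neighbours, the change of DNMT3B in shAgo2 was -0.17 and was not called (adjusted p = 0.0982). In shDicer mRNA it was also -0.17 against them (adjusted p = 0.251).

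DNMT1, the maintenance methyltransferase (chr19:10133342-10231286, minus strand), overlapped between groups in mRNA, at 99.9, 88.6 and 119 CPM in wt and 96.4, 94.0 and 115 CPM in shDicer. In chromatin RNA it fell from 516 and 510 CPM in wt to 407 and 391 CPM in shDrosha, a log2 fold change of -0.36 (SE 0.0750, adjusted p = 0.0245). It stood at 433 and 409 CPM in shDicer (log2 fold change -0.28, adjusted p = 0.0103, not called) and at 490 and 496 CPM in shAgo2 (-0.057, adjusted p = 0.575). The shDrosha call of DNMT1 was lost in 9 of 16 alternatives, among them leaving out wt 1 or wt 2, shAgo2 1 or shAgo2 2, or shDrosha 2 (adjusted p = 0.0576 to 0.203). In TPM, DNMT1 mRNA was at 25.5, 29.9 and 28.5 in wt and 13.4, 19.8 and 24.6 in shDicer. These groups did not overlap, unlike those in CPM, but the fit on length-scaled counts gave -0.27 with an adjusted p of 0.101. The cause of the gap between TPM and CPM was not tested.

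Of the dioxygenases, TET2 fell in shDicer mRNA, TET3 rose in shAgo2 chromatin RNA and TET1 rose in shDrosha chromatin RNA. TET2 (chr4:105145875-105279816, plus strand) stood in mRNA at 48.8, 50.8 and 46.9 CPM in wt and 30.4, 37.6 and 32.5 CPM in shDicer. Every shDicer library was below every wt library, and the log2 fold change was -0.54 (SE 0.102, adjusted p = 0.000890). The call lay close to the threshold. It was lost without wt 1, wt 2, wt 3, shDicer 1 or shDicer 3 in turn (adjusted p = 0.00112 to 0.00662), and against the 50 nearest genes, whose median was -0.23, the difference was -0.32 (adjusted p = 0.0221). In chromatin RNA TET2 was not called in any knockdown against wt, with 115 and 114 CPM in wt, 103 and 100 CPM in shDicer, 118 and 120 CPM in shAgo2 and 134 and 126 CPM in shDrosha.

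TET3 (chr2:73984910-74108176, plus strand) rose from 79.6 and 83.4 CPM in wt to 108 and 124 CPM in shAgo2 chromatin RNA, a log2 fold change of 0.51 (SE 0.0828, adjusted p = 0.000400). In shDicer, at 92.3 and 87.4 CPM, and in shDrosha, at 93.5 and 92.3 CPM, it was above wt without passing the test (adjusted p = 0.212 and 0.244). The shAgo2 call was lost without wt 1 (adjusted p = 0.0102) or shAgo2 2 (log2 fold change 0.41, adjusted p = 0.0106). In mRNA it was at 14.9 ± 0.719 CPM (SD, n = 3) in wt, with no library above 15.3 CPM, and at 17.8, 17.5 and 17.2 CPM in shDicer, without overlap (log2 fold change 0.23, adjusted p = 0.0904, not called).

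TET1 (chr10:68560337-68694487, plus strand) rose from 119 and 117 CPM in wt to 146 and 155 CPM in shDrosha chromatin RNA, a log2 fold change of 0.36 (SE 0.0735, adjusted p = 0.0241). In shDicer it was below wt, at 97.9 and 103 CPM (log2 fold change -0.23, adjusted p = 0.0294, not called), and in shAgo2 it was at 124 and 130 CPM (0.11, adjusted p = 0.261). The shDrosha call was lost in 7 of 16 alternatives, among them leaving out wt 1 or wt 2, shAgo2 1 or shAgo2 2, or shDrosha 2 (adjusted p = 0.0618 to 0.192). TET1 mRNA was at 42.6, 45.0 and 49.8 CPM in wt and 41.0, 40.9 and 43.0 CPM in shDicer, where the groups overlapped.

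The PRC2 methyltransferases changed in opposite directions in shDicer chromatin RNA, EZH2 down and EZH1 up. EZH2 (chr7:148807257-148884321, minus strand) fell in mRNA from 48.9, 45.4 and 44.4 CPM in wt to 26.2, 32.4 and 28.1 CPM in shDicer, a log2 fold change of -0.68 (SE 0.104, adjusted p = 0.000235), or a fall of 37.6%. In chromatin RNA it fell from 93.0 and 99.4 CPM to 65.7 and 71.4 CPM in shDicer, a log2 fold change of -0.49 (SE 0.0986, adjusted p = 0.00202). EZH2 did not fall in the other groups. It stood at 95.0 and 108 CPM in shAgo2 (log2 fold change 0.080, adjusted p = 0.546) and at 130 and 111 CPM in shDrosha (0.33, adjusted p = 0.0890). Without shDrosha 2 it was called higher there (0.44, adjusted p = 0.0420). The mRNA call was lost without wt 1, wt 2, wt 3 or shDicer 3 in turn (adjusted p = 0.00107 to 0.00256), and with length-scaled counts (-0.58, adjusted p = 0.00391). Against the 50 nearest genes, whose median in mRNA was -0.27, the change was -0.41 (adjusted p = 0.00725). The chromatin call was lost without wt 1, wt 2 or shDicer 1 (adjusted p = 0.0106 to 0.0265) and with length-scaled counts (-0.40, adjusted p = 0.0136), while against its neighbours EZH2 was at -0.58 (adjusted p = 0.000870).

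EZH1 (chr17:42700275-42745049, minus strand) rose in shAgo2 chromatin RNA from 82.0 and 79.6 CPM in wt to 132 and 125 CPM, a log2 fold change of 0.67 (SE 0.0754, adjusted p = 2.36e-05), or 59.1% higher. That call held in all 16 alternatives run for it. In shDicer EZH1 was at 109 and 102 CPM, a log2 fold change of 0.39 (SE 0.0756, adjusted p = 0.00167), and in shDrosha it was at 92.4 and 88.4 CPM (0.16, adjusted p = 0.272). The shDicer call was lost with length-scaled counts (0.39, adjusted p = 0.00868). It was also lost without wt 1, wt 2 or shDicer 1 (log2 fold change 0.34 to 0.41). In mRNA EZH1 stood at 21.6, 19.9 and 22.0 CPM in wt and 23.9, 26.7 and 26.4 CPM in shDicer, all higher, with a log2 fold change of 0.28 that was not called (adjusted p = 0.0418). The genes around EZH1 did not move with it: the median over its 50 neighbours was 0.013 in shAgo2 and -0.070 in shDicer chromatin RNA.

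Neither H3K9 methyltransferase passed the threshold in any comparison with wt by the planned fit. SETDB1 (chr1:150926263-150964744, plus strand) was at 169 and 173 CPM in wt chromatin RNA, 148 and 144 CPM in shDicer, 137 and 143 CPM in shAgo2 and 169 and 148 CPM in shDrosha. The log2 fold changes of -0.23 in shDicer (adjusted p = 0.0413) and -0.29 in shAgo2 (adjusted p = 0.0124) were close to those of its neighbours, whose medians were -0.22 and -0.29. A fit with wt and shAgo2 alone called SETDB1 lower (adjusted p = 0.000509), as did the fits without shDrosha 1 or shDrosha 2 (adjusted p = 0.00429 and 0.00445). In mRNA SETDB1 was at 80.2, 73.7 and 81.3 CPM in wt and 84.1, 86.9 and 74.5 CPM in shDicer. In TPM it was at 18.9, 18.6 and 18.5 in wt and 14.2, 14.4 and 14.2 in shDicer, so that the groups overlapped in CPM and were apart in TPM. TET1, which has 1 transcript, was also apart in TPM (2.24 to 2.75 in wt, 1.72 to 2.22 in shDicer) and not in CPM. Its mean effective length was 9138 nt in wt mRNA and 9122 nt in shDicer mRNA. For SETDB1 these lengths were 2107 and 2395 nt. The cause of this gap between units was not tested. With length-scaled counts the log2 fold change of SETDB1 was -0.086 (adjusted p = 0.506).

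EHMT2 (chr6:31879759-31897698, minus strand) lies in the major histocompatibility complex, and 10 of its 12 transcripts share length and counts (within 0.1%) with 37 identifiers outside the annotation used, such that its reads were split between copies. On its own identifiers it stood at 7.94, 8.63 and 8.09 CPM in wt mRNA and 11.8, 11.0 and 10.3 CPM in shDicer mRNA (log2 fold change 0.42, adjusted p = 0.0182, not called). With the copies added, an alternative chosen after seeing the data, the mRNA groups overlapped, at 26.3, 28.5 and 28.1 CPM and 36.1, 28.2 and 31.1 CPM (0.20, adjusted p = 0.149). In chromatin RNA its own identifiers gave 24.1 and 31.6 CPM in wt, 19.9 and 13.4 CPM in shDicer, 19.2 and 16.3 CPM in shAgo2, and 28.5 and 12.1 CPM in shDrosha. None of these was called, but EHMT2 was called lower in shDrosha without shDrosha 1 (log2 fold change -1.20, adjusted p = 0.0220; 0.033 without shDrosha 2) and in shAgo2 with only those 2 groups fitted (adjusted p = 0.000154). With copies the wt libraries were at 69.8 and 81.6 CPM and the shDicer libraries at 56.7 and 47.7 CPM, and EHMT2 was then called lower (log2 fold change -0.54, adjusted p = 0.00388). The values of EHMT2 are therefore uncertain, and none of the other 9 members had such copies.

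**Figure D3:**
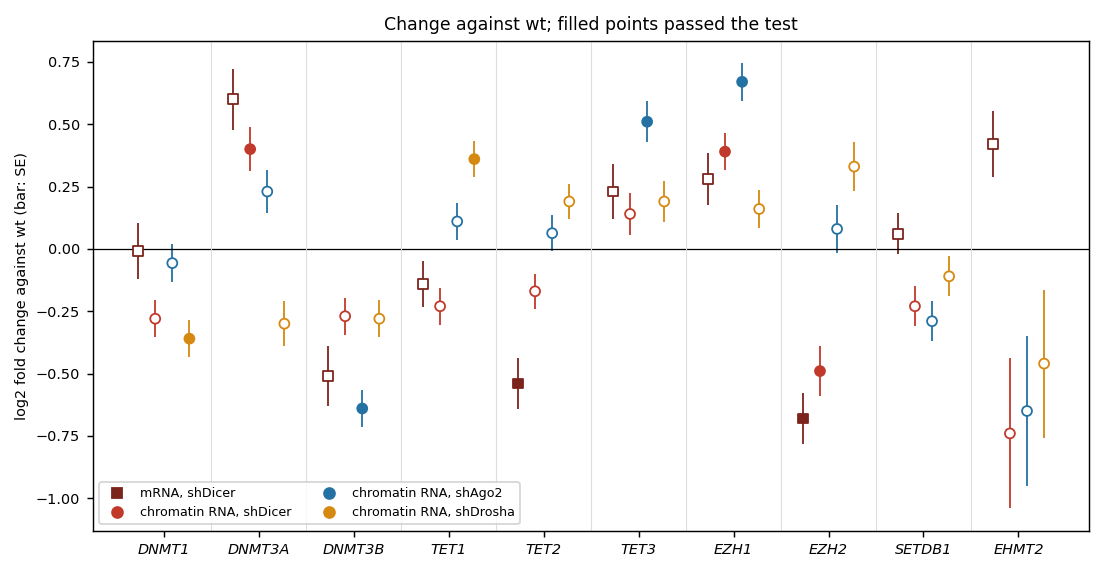
Log2 fold change of each of the 10 genes against wt in shDicer mRNA and in chromatin RNA of the libraries labelled shDicer, shAgo2 and shDrosha, with bars for the standard error of the edgeR fit, squares for mRNA, circles for chromatin RNA, and filled symbols for called values. EZH2 is below 0 in both shDicer comparisons (-0.68 and -0.49) and near 0 in shAgo2 (0.080), whereas EZH1 is above 0 in all of them, up to 0.67 in shAgo2.

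The knockdowns were also compared with each other, which uses no wt library in the contrast. The study states no threshold for these contrasts, and an adjusted p under 0.005 was used. Between shDicer and shAgo2 chromatin RNA, 0 members were called higher and 1 lower, beside 1.37% and 1.34% of genes. At an unadjusted p under 0.05, 1 was higher and 6 lower, beside 12.0% and 11.6% of genes, and DESeq2 called 0 higher and 1 lower, beside 1.59% and 1.40%. The member called by edgeR was EZH2, lower in shDicer by a log2 difference of -0.57 (SE 0.0981, adjusted p = 0.00389). The call was lost in 8 of 16 alternatives, including without any single wt, shDicer or shAgo2 library. DNMT3B (0.37, adjusted p = 0.00896), TET1 (-0.34, adjusted p = 0.0138), TET3 (-0.37, adjusted p = 0.0154) and EZH1 (-0.28, adjusted p = 0.0321) were not called different between those groups. Between shDicer and shDrosha, 1 member was higher and 3 lower, beside 11.0% and 9.51% of genes. DNMT3A was higher in shDicer (log2 difference 0.70, SE 0.0882, adjusted p = 6.86e-05). TET1 (-0.59, SE 0.0737, adjusted p = 6.92e-05), EZH2 (-0.82, SE 0.0981, adjusted p = 4.96e-05) and TET2 (-0.36, SE 0.0710, adjusted p = 0.00192) were lower. The calls of DNMT3A, TET1 and EZH2 held in all 16 alternatives, and that of TET2 was lost in 9, including without any single library except shDrosha 2. Between shAgo2 and shDrosha, 2 members were higher and 1 lower, beside 11.6% and 10.3% of genes. DNMT3A (0.54, SE 0.0884, adjusted p = 0.000495) and EZH1 (0.51, SE 0.0748, adjusted p = 0.000218) were higher in shAgo2, and DNMT3B was lower (-0.37, SE 0.0751, adjusted p = 0.00215). DNMT1 was not called by edgeR (0.31, adjusted p = 0.00670), but was called higher in shAgo2 by DESeq2 (0.30, adjusted p = 0.00182) and without the low-count filter (0.31, adjusted p = 0.00317). DNMT3A was not called in 3 of 16 alternatives, among them without shAgo2 1 (0.49) or shDrosha 1 (0.48). EZH1 was not called in 2 of 16, without shAgo2 1 (0.47) and with length-scaled counts (0.43, adjusted p = 0.00511). The DNMT3B call was lost in 9 alternatives, among them without any single wt, shAgo2 or shDrosha library (adjusted p = 0.00505 to 0.0270), and against its 50 neighbours the difference turned to 0.096 (adjusted p = 0.362).

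The shDicer effect was then compared between mRNA and chromatin RNA in 1 fit over the 14 libraries, again at an adjusted p under 0.005, which is not a threshold of the study. No member was called, 0 higher and 0 lower, beside 2.69% and 1.79% of 32812 genes, and the adjusted p-values by edgeR nearest to the threshold were 0.0471 for EHMT2 (effect in mRNA minus effect in chromatin RNA 1.09, SE 0.348) and 0.0563 for TET2 (-0.45). At an unadjusted p under 0.05, 1 was higher and 2 lower, beside 11.6% and 11.5% of genes. DESeq2 called 0 higher and 1 lower, beside 3.59% and 4.54% of genes, and that member was TET2 (-0.51, adjusted p = 0.00254). Induction lasted 7 days in the mRNA-seq and 72 h in the chrRNA-seq, and the lines differed, so assay, time and line cannot be told apart.

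The transcripts behind these gene sums differed between the assays. For DNMT3B, ENST00000348286 held 82.6% of the gene's TPM in wt mRNA and 70.3% in shDicer mRNA but 17.9% in wt chromatin RNA, where ENST00000456297 held 36.6%. For TET3, ENST00000409262 held 91.6% in wt mRNA and 24.2% in wt chromatin RNA. For TET2, ENST00000380013 held 68.9% in wt mRNA and 0.538% in wt chromatin RNA. EZH2 mRNA was led by ENST00000460911, with 39.5% of TPM in wt and 49.8% in shDicer, whereas the retained-intron transcript ENST00000469631 held 14.2% of TPM in wt mRNA and 47.1% in wt chromatin RNA. For DNMT3A, ENST00000264709 held 32.4% of TPM in wt mRNA and 39.3% in shDicer mRNA, and ENST00000380746, which starts inside the gene, held 15.6% and 16.5%. Shares in chromatin RNA rest on reads from introns and unfinished transcripts as well, and the assignment of such reads to short annotated transcripts was not tested.

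**Figure D4:**
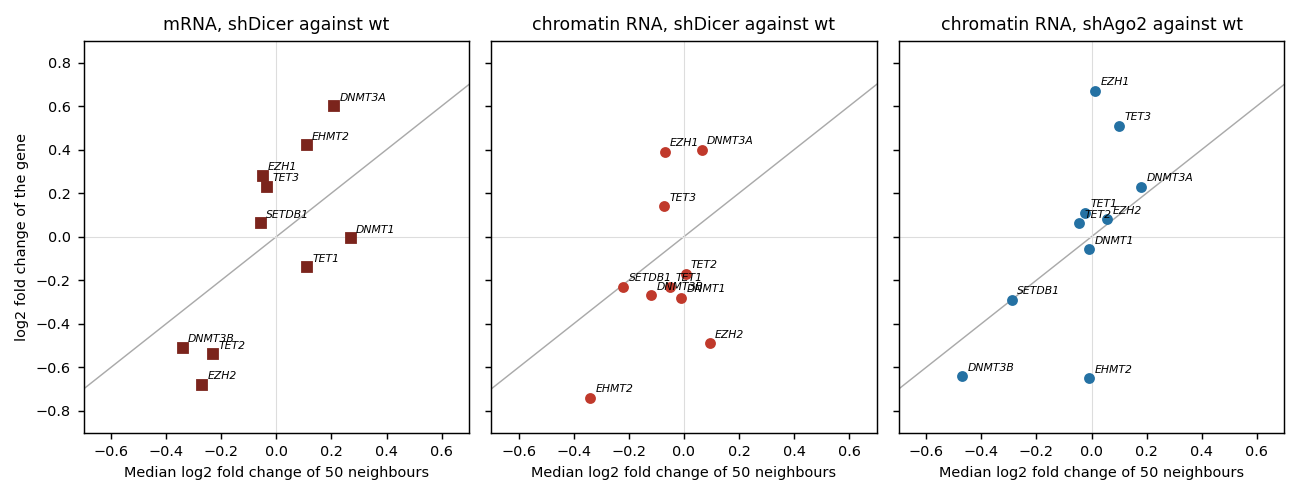
Log2 fold change of each member against the median log2 fold change of its 50 nearest genes, in shDicer mRNA and in shDicer and shAgo2 chromatin RNA, with a diagonal where both are equal. SETDB1 lies by its neighbours in chromatin RNA (-0.29 and -0.29 in shAgo2), while EZH1 lies far above its own (0.67 and 0.013 in shAgo2).

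The partners and readers of these enzymes, given from lists chosen for their roles, changed as follows in shDicer mRNA, shDicer chromatin RNA and shAgo2 chromatin RNA. Beside every list count here and below, the shares of all genes called higher and lower were 15.6% and 14.2%, 11.0% and 10.5%, and 12.5% and 12.1%. Of 16 DNA methylation partners and readers tested, 1 was higher and 5 lower in mRNA, 3 and 5 in shDicer chromatin RNA, and 4 and 3 in shAgo2 chromatin RNA, with medians of -0.18, 0.0097 and 0.0030 against 0.011, 0.0072 and 0.0028 for all genes. CDCA7, a chromatin remodelling partner needed for DNA methylation, fell by 1.09, 0.80 and 0.76 on the log2 scale in these 3 comparisons. MBD2, which binds methylated DNA, rose by 1.15, 1.02 and 0.67.

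Of the PRC2 subunits other than EZH1 and EZH2, 2 were higher and 4 lower of 10 tested in mRNA, 0 and 5 of 12 in shDicer chromatin RNA and 1 and 4 of 12 in shAgo2 chromatin RNA, with medians of -0.10, -0.30 and -0.14. RBBP4, a histone-binding subunit, fell from 594 ± 13.2 CPM (SD, n = 3) in wt mRNA to 212 ± 14.6 CPM (SD, n = 3) in shDicer (log2 fold change -1.49, adjusted p = 6.61e-08), and by 1.03 and 0.92 in chromatin RNA of shDicer and shAgo2. EED, which binds H3K27me3, fell by 0.99 on the log2 scale in mRNA (adjusted p = 1.82e-05). RBBP7, the paralogue of RBBP4, rose by 0.39 in mRNA. Some PRC1 subunits act on chromatin marked by PRC2. The 19 PRC1 subunits tested had 1 higher and 3 lower in mRNA, 4 and 7 in shDicer and 2 and 7 in shAgo2 chromatin RNA. Among these CBX6 fell by 0.84 and 0.86 in the chromatin comparisons and RNF2 fell by 1.10 in mRNA. RING1 also lies in the major histocompatibility complex. Its own counts went from 27.1 to 41.2 in wt mRNA to about 0 in shDicer, while 6 identifiers of the same length outside the annotation went from 48.4 to 64.2 counts to 172 to 316, so no fold is given. RING1 is 1 of the lower calls in each of the 3 PRC1 counts above.

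Of 18 partners and readers of H3K9 methylation, 0 were higher and 5 lower in mRNA, 1 and 3 in shDicer chromatin RNA, and 2 and 2 in shAgo2 chromatin RNA. TRIM28, the corepressor that brings SETDB1 to its targets, fell in chromatin RNA from 396 ± 15.4 CPM (SD, n = 2) in wt to 165 ± 6.26 CPM in shDicer and 145 ± 4.22 CPM in shAgo2. CBX1, a reader of H3K9 methylation, fell by 0.85 in mRNA and 0.37 in shDicer chromatin RNA, and PRDM2 rose by 0.81 and 0.69 in the chromatin comparisons. Of the H3K9 and H3K27 demethylases, 1 was higher and 2 lower of 12 in mRNA, 1 and 2 of 13 in shDicer chromatin RNA, and 2 and 3 of 13 in shAgo2 chromatin RNA. KDM1A rose in all 3 comparisons, by 0.38, 0.61 and 0.79, and KDM4A fell in all 3, by 0.55, 0.56 and 0.58.

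Genes listed as silenced by these marks in other settings moved in both directions. Their marks were not measured here. Those named below had RNA in wt, although LHX2 and PAX7 were near the floor there in mRNA. Of 24 germline genes silenced by DNA methylation, 5 passed the filter in mRNA, and PRAME rose (log2 fold change 1.81) while HORMAD1 went from 5.41 ± 1.41 CPM (SD, n = 3) in wt to 0 in shDicer, at least 23.4-fold lower against a floor of 3 counts per library. Of 13 tested in chromatin RNA, 1 was higher and 0 lower in shDicer and 2 higher and 1 lower in shAgo2. SOHLH2 rose in both, by 1.58 and 1.75. Of the developmental genes silenced by PRC2, 5 were higher and 1 lower of 17 in mRNA, 5 and 4 of 21 in shDicer chromatin RNA and 4 and 3 of 21 in shAgo2 chromatin RNA. The shares of all genes called higher and lower were 15.6% and 14.2%, 11.0% and 10.5%, and 12.5% and 12.1% in these comparisons. PAX9 rose from 7.22 ± 1.11 CPM (SD, n = 2) in wt to 36.5 ± 2.41 CPM in shDicer and 30.1 ± 1.36 CPM in shAgo2 chromatin RNA, and HAND1 fell from 6.43 ± 1.05 CPM in wt to 0.501 ± 0.110 CPM in shDicer. A gene near 0 in 1 group can pass the low-count filter through the other group alone, which fixes its direction. In mRNA this held for HORMAD1 and for HAND1, at 2.73 CPM in wt and 0.0596 CPM in shDicer. Among the genes called higher in mRNA it held for LHX2, at 0.406 CPM in wt and 2.43 CPM in shDicer. It also held for PAX7, at 0.2 CPM in wt and 1.9 CPM in shDicer. The counts above include such genes and do not measure loss of silencing.

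**Figure D5:**
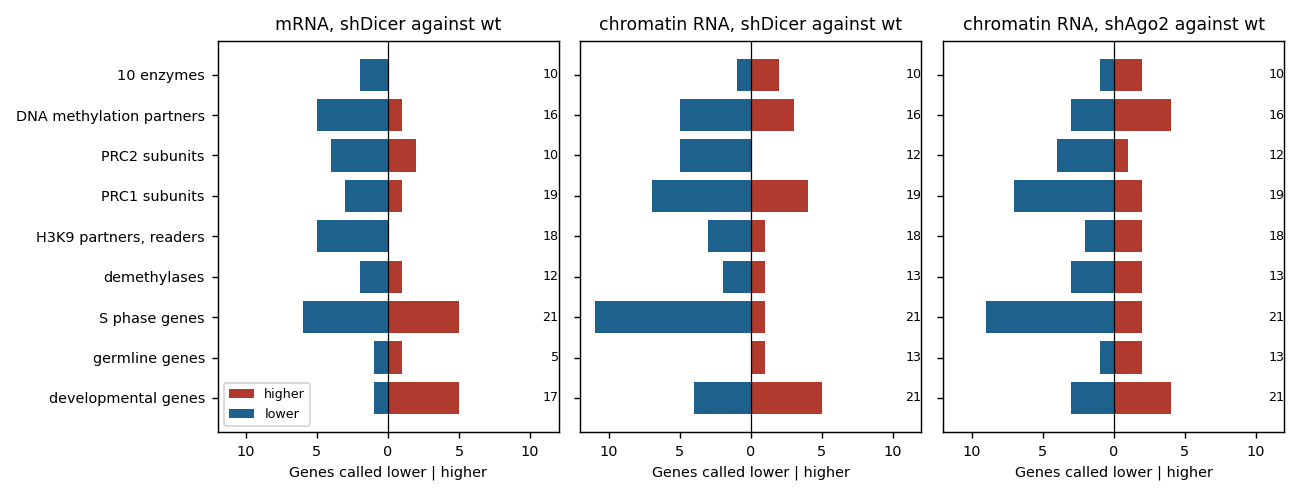
Number of genes called higher (right of 0, red) and lower (left of 0, blue) among the 10 enzymes and in each list of partners, readers, S phase genes and silenced genes, for shDicer mRNA and shDicer and shAgo2 chromatin RNA, with the number of genes tested printed at the right. PRC2 subunits have more lower than higher calls in all 3 comparisons (4 and 2, 5 and 0, 4 and 1). Of all genes, 15.6% and 14.2%, 11.0% and 10.5%, and 12.5% and 12.1% were called higher and lower.

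Over the 8 chromatin libraries, which share 4 groups of lines and so are not independent points, the pattern of each member in log2 CPM was compared with the other 9 members and the list genes, 142 candidates in all. These correlations are descriptions. The gene most like EZH2 was KDM6A, an H3K27 demethylase (Pearson r = 0.98), which was also the gene most like TET2 (0.97). The gene most like TET1 was TET2 (0.95). DNMT3A was most like KDM2B (0.93), DNMT3B most like CHAF1B (0.96), TET3 most like JMJD1C (0.91) and EZH1 most like SOX1 (0.94). SETDB1 was most like PHF8 (0.95), DNMT1 most like JARID2 (0.82) and EHMT2 most like SETDB1 (0.78).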

How the data were processed

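The authors quantified each library with kallisto against the cDNA and ncRNA transcripts that Ensembl annotates, and deposited, per transcript, estimated counts (not normalised) and TPM (scaled to transcript length and library size by kallisto). The labels call the mRNA-seq polyA RNA, while the study's methods describe ribosomal RNA depletion. Of 217082 transcripts, 193697 (89.2%) matched GENCODE v44 and were summed to genes. They held 93.4% to 94.8% of the counts. Sums were rounded, filtered with filterByExpr, normalised by TMM and tested with edgeR 4.0.16 (glmQLFit and glmQLFTest, R 4.3.3), with Benjamini-Hochberg adjustment over all genes. The 6 mRNA libraries formed 1 fit and the 8 chromatin libraries another. Thresholds against wt followed the study. That between knockdowns and between assays was set here. The study's methods used DESeq2, which was run as an alternative (1.42.0), beside RLE size factors, no filter, length-scaled counts, a replicate block, an offset from the 50 nearest genes, only the groups compared, and each library left out.

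The members and gene lists were chosen with earlier results of these data known. Besides the 10 members and the targeted genes, the text names of each list called genes among the 2 largest and 2 smallest log2 fold changes in the main comparisons, the most similar gene in chromatin RNA, and transcripts holding at least 10% of a member's TPM in any group. A list gene that this rule names is not reported here. Tests were two-sided throughout, and markers were given for identity alone.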

Additional observations from a re-analysis of the deposited data

How the results depend on the processing

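The member counts were small, so single calls moved them. In shDicer mRNA, 1 member was higher and 3 lower without the low-count filter, 0 were lower with length-scaled counts or the neighbour offset, and 0 to 2 were lower with each library left out. In shDicer chromatin RNA, 1 was higher with length-scaled counts, the replicate block, the neighbour offset or only the 2 groups (0 to 2 with each library left out), and the lower count was 2 with DESeq2 or with EHMT2 copies, 0 with length-scaled counts or the block, and 0 to 1 with a library left out. In shAgo2, 1 to 2 were higher and 1 to 2 lower with a library left out, and 0 were lower with the offset and 3 with only the 2 groups. In shDrosha, 0 were higher with length-scaled counts or the block (0 to 1 with a library left out), and 0 were lower with length-scaled counts, the block, the offset or only the 2 groups (0 to 3 with a library left out). Between shDicer and shAgo2, 0 were lower with length-scaled counts or the block (0 to 1 with a library left out). Between shAgo2 and shDrosha, 3 were higher with DESeq2 or without the filter, 1 was higher with length-scaled counts or the offset (0 to 2 with a library left out), and 0 were lower with DESeq2, length-scaled counts, the block or the offset (0 to 1 with a library left out). For the mRNA minus chromatin difference, 1 was higher without the filter and 1 lower with DESeq2, under which the median over all genes was -0.17 in place of -0.036. DNMT3B between shAgo2 and shDrosha was the only called difference to reverse, to 0.096 with the offset. The cause of these changes was not tested, and with a library left out of 2 the lone one is assumed to vary like the others.

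Libraries sharing a replicate number did not deviate together (correlations -0.131 to 0.0812), so the numbers were not taken to pair samples. With the replicate block, DNMT3A in shDicer chromatin RNA was at 0.40 (adjusted p = 0.00865), EZH2 had an adjusted p of 0.00542, and in shDrosha DNMT1 and TET1 had 0.0706 and 0.0611. The difference between assays was not fitted with the block. Of all member values compared with an alternative, 1104 kept their direction and side of the threshold, 80 lost the call, 18 gained it and 38 changed sign. All but 1 of those 38 were called in neither fit. The lowest mRNA level of any member was 7.94 CPM (EHMT2 on its own identifiers, wt), against 0.311 CPM for 3 counts in the shallowest library.

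The sign changes of differences that were not called were these. Without the filter, DNMT1 in shDicer mRNA was at 0.037. With length-scaled counts, SETDB1 was at -0.086 in shDicer mRNA and 0.018 in shDrosha, DNMT1 at -0.011 and TET3 at 0.010 between shDicer and shDrosha, and DNMT1 and DNMT3A at -0.095 and -0.32 for the difference between assays. With the offset, SETDB1 and EHMT2 were at -0.0023 and 0.24 between shDicer and shAgo2. Between shDicer and shDrosha the offset gave -0.017 for DNMT1, 0.036 for TET3, 0.018 for SETDB1 and 0.0053 for EHMT2, and between shAgo2 and shDrosha 0.020 for SETDB1. With copies, EHMT2 was at 0.030 between shAgo2 and shDrosha. For the difference between assays, TET1 and TET3 were at -0.040 and -0.043 with RLE size factors and -0.038 and -0.044 with DESeq2. With a library left out, DNMT1 in mRNA ranged from -0.11 to 0.10, EZH2 in shAgo2 from -0.019 to 0.17, and EHMT2 in shDrosha from -1.20 to 0.033. EHMT2 then ranged from -0.41 to 0.17 between shDicer and shAgo2, -0.77 to 0.45 between shDicer and shDrosha and -0.68 to 0.55 between shAgo2 and shDrosha. DNMT3B between shDicer and shDrosha ranged from -0.035 to 0.048, and between assays TET1 ranged from -0.042 to 0.062 and TET3 from -0.053 to 0.067.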

Other observations

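Genes of S phase, when DNA methylation is copied, had more lower than higher calls in chromatin RNA and similar numbers of both in mRNA. Of 21 tested, 5 were higher and 6 lower in shDicer mRNA, 1 and 11 in shDicer chromatin RNA and 2 and 9 in shAgo2 chromatin RNA, with median log2 fold changes of -0.35, -0.44 and -0.31 against 0.011, 0.0072 and 0.0028 for all genes. The shares of all genes called higher and lower were 15.6% and 14.2%, 11.0% and 10.5%, and 12.5% and 12.1%. GINS2, part of the replicative helicase, fell from 114 ± 1.83 CPM (SD, n = 3) in wt mRNA to 65.5 ± 0.808 CPM in shDicer, and from 74.7 ± 1.77 CPM (SD, n = 2) to 39.6 ± 3.14 CPM in shDicer chromatin RNA. MCM2, a helicase subunit, fell by 0.88 and 0.87 on the log2 scale in shDicer and shAgo2 chromatin RNA, and E2F1, a transcription factor of the G1 to S transition, fell by 1.13 in shAgo2. TYMS, which makes thymidylate, went the other way in shDicer, up by 0.95 in mRNA and 0.42 in chromatin RNA, and MKI67 and TOP2A rose by 0.74 and 0.78 in shAgo2 chromatin RNA. In shDrosha 0 were higher and 3 lower, where 1.19% and 2.18% of all genes were called. The lists of partners named above gave 3 or fewer calls each in shDrosha, and the germline and developmental lists gave 0 in either direction there.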
